A study of Mus musculus with 5 samples.

Results

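Cytochrome P450 families 1 to 4 were followed across cell classes and segments of the mouse intestine. The members were all genes whose symbol reads Cyp, then a digit from 1 to 4, then a letter and a closing number, and 75 of the 32285 genes in the deposited tables met this rule. They comprised 3 genes of family 1, 48 of family 2, 7 of family 3 and 17 of family 4. In epithelial-like and stromal-like cells together, 38 members had at least 50 unique molecular identifiers (UMIs, 1 per captured transcript), 19 had between 1 and 49, and 18 had none.

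The study, titled for Gnai1+ stromal cells, c-Jun signalling and the differentiation of goblet and Paneth cells, profiled single cells of 5 segments: duodenum, jejunum, ileum, colon and rectum, with 1 library each. Live cells were sorted by their exclusion of propidium iodide and captured on the 10x Genomics platform. Every library is labelled as a mixture of epithelial, mesenchymal and immune cells. The labels give no treatment, strain, genotype, age or sex, and do not say how many mice a library holds. Spatial libraries named in the design were not analysed here.

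The deposited tables held between 41953568 and 65546664 UMIs per library. After filtering, 11922 cells remained, between 1829 and 3196 per library, of which 4934 were epithelial-like, 551 stromal-like, 6263 immune-like and 133 endothelial-like. The suffix -like marks a class named from marker genes that exclude the P450 members. Stromal-like cells were few in the jejunum (16) and ileum (22), and 30 cell barcodes occurred in more than 1 library (16 among the cells kept). Rectal absorptive-like cells numbered 57, with a median of 5792 UMIs per cell, against 248 colonic ones with a median of 32467.5. With 1 library per segment no difference between segments could be tested, so levels are given as CPM, the gene's UMIs scaled to a class total of 1000000 UMIs. Their exact Poisson 95% intervals cover counting error only. Since a level is a share of a class's RNA, more of a gene per cell and more cells that carry it cannot be told apart.

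Cytochrome P450 enzymes are heme proteins of the endoplasmic reticulum that insert an oxygen atom into their substrates, using electrons passed on by P450 oxidoreductase (Por). Families 1 to 3 are best known for oxidising drugs, dietary compounds and pollutants, while many enzymes of family 4 hydroxylate fatty acids and eicosanoids. In the gut they meet swallowed compounds before the liver does, and several are induced through ligand-sensing receptors: the aryl hydrocarbon receptor (Ahr) for family 1, CAR (Nr1i3) and PXR (Nr1i2) for Cyp2b and Cyp3a genes, and PPARA for Cyp4a genes.

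The genes lie in tandem arrays. By the RefSeq annotation of GRCm38.p6, 66 of the 75 members sat in 8 clusters whose neighbours were less than 1000000 bases apart. The Cyp2c cluster on chromosome 19 (chr19:39006940-40187286) held 14 members, 7 of them with at least 50 UMIs and 4 with none. The Cyp2d cluster on chromosome 15 (chr15:82370527-82794452) held 8 members, 6 of them with at least 50 UMIs. The cluster of Cyp2a, Cyp2b and related genes on chromosome 7 (chr7:25802469-27158564) held 13 members, of which only Cyp2s1, Cyp2b10 and Cyp2f2 reached 50 UMIs. Near-identical copies within these arrays can share reads, and how reads matching several genes were counted is not given in the sources used here. The split between Cyp3a11, Cyp3a16 and Cyp3a44, among Cyp2c29, Cyp2c38 and Cyp2c39, among Cyp2c40, Cyp2c67, Cyp2c68 and Cyp2c69, and among Cyp2d9, Cyp2d10, Cyp2d11, Cyp2d12, Cyp2d34 and Cyp2d40 is therefore uncertain.

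Upstream sequences are shown for 5 members whose levels are described in turn: Cyp1a1 and Cyp1b1, the aryl hydrocarbon receptor targets found in different compartments, and Cyp2c55, Cyp2c65 and Cyp2c66, adjacent genes with different segment patterns. Each run is the stretch before the annotated start in RefSeq GRCm38.p6, 5′ to 3′ on the gene's strand. Capitals mark the receptor's core word GCGTG, or CACGC where it reads on the other strand, in Cyp1a1 and Cyp1b1. In the Cyp2c genes they mark the longest run shared by Cyp2c65 and Cyp2c66, or the longest that Cyp2c55 shares with either.
Cyp1a1: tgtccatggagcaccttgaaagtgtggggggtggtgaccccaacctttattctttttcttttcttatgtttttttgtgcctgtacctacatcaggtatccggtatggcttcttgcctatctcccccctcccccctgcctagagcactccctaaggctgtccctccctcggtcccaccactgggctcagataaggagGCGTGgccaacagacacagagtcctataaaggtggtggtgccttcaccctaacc
Cyp1b1: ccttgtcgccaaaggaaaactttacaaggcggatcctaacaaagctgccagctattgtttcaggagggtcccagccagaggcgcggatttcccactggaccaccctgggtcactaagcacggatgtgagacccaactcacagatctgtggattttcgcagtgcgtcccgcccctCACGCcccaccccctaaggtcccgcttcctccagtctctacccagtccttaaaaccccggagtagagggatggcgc
Cyp2c55: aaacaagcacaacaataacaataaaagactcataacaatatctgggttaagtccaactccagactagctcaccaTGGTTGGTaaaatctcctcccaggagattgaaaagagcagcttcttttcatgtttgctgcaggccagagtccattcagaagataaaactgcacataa
Cyp2c65: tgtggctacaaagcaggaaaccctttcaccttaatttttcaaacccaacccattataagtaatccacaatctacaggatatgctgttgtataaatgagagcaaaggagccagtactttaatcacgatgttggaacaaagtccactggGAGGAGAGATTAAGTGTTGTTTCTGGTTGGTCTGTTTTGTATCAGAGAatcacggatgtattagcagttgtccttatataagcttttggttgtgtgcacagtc
Cyp2c66: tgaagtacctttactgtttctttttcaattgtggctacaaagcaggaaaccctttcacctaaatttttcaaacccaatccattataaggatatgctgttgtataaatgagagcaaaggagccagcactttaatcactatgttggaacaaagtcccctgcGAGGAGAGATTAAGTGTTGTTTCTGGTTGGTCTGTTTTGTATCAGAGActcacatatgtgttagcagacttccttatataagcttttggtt
Cyp1a1 lies on chromosome 9 (window chr9:57697363-57697612, plus strand), where a longer annotated transcript begins upstream of the start used. Its core word begins 54 bases before the start. Cyp1b1 lies on chromosome 17 (chr17:79715062-79715311, minus strand), with the word beginning 76 bases before the start. The word occurred in 28.2% of all 32851 annotated windows of 250 bases, and in 12 of the 62 members that had a window. The windows of Cyp2c65 (chr19:39060756-39061005) and Cyp2c66 (chr19:39113648-39113897) shared a run of 48 bases, and 190 of 250 bases lay in shared runs of at least 8. Cyp2c55 (chr19:39006769-39006939, the 171 bases outside its annotated span) shared no run longer than 8 bases with either.

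Member transcripts were concentrated in absorptive-like cells, the enterocytes and colonocytes that line the surface. Summed over all members, the level in absorptive-like cells was 3951, 5064, 2638, 6368 and 2529 CPM in duodenum, jejunum, ileum, colon and rectum. In goblet-like cells, which secrete mucus, it was 296, 378, 202, 605 and 170 CPM, and in crypt-like cells, which include the stem and dividing cells, 263, 281, 206, 811 and 267 CPM. In stromal-like cells it was 253, 411, 286, 207 and 172 CPM. The lowest absorptive library was above the highest library of each of these other classes. Of the member UMIs, 300395 came from epithelial-like and 903 from stromal-like cells. Cyp2c55 alone supplied 18.6% of the epithelial ones, Cyp4f14 12.7% and Cyp3a13 9.07%.

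**Figure D1:**
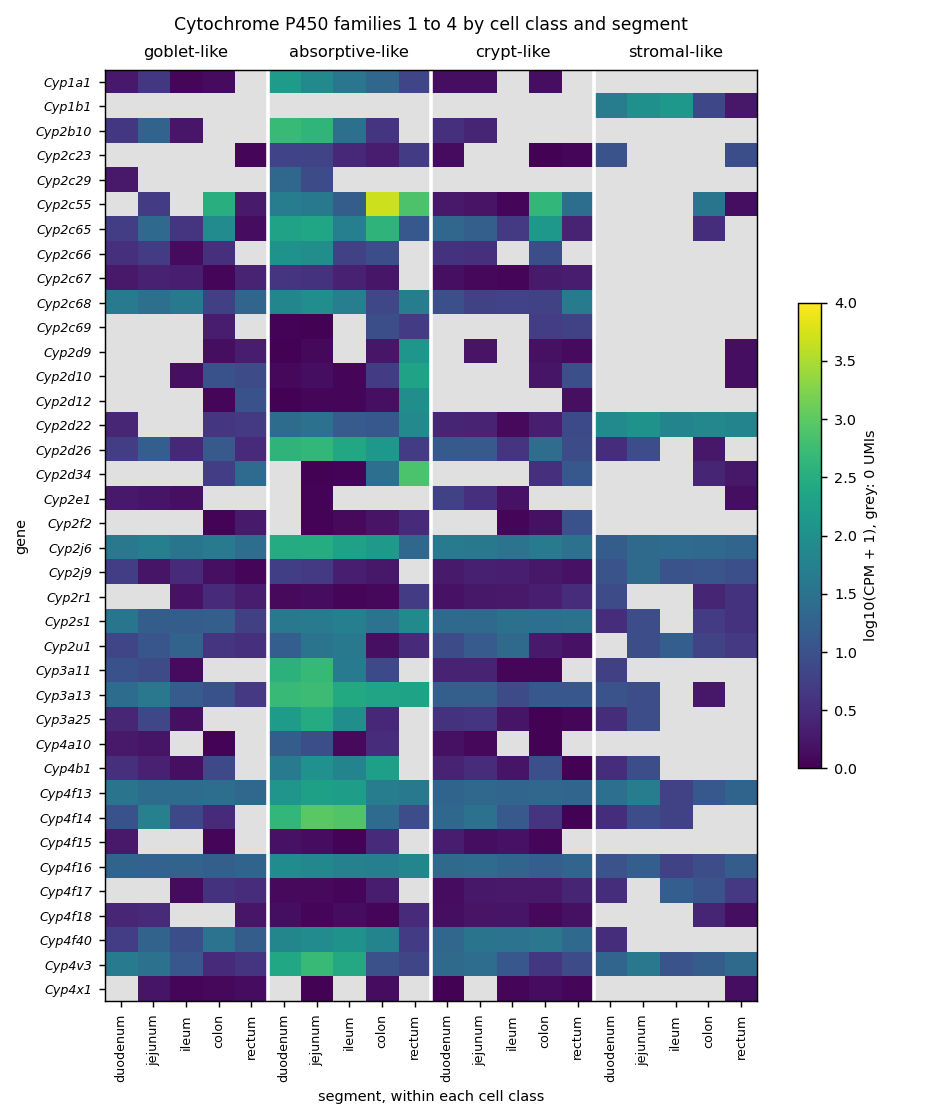
Levels of the 38 members with at least 50 UMIs, as log10 of CPM plus 1, in goblet-like, absorptive-like, crypt-like and stromal-like cells, with the 5 segments in order within each class. Grey marks 0 UMIs; the absorptive block is brightest, Cyp1b1 has UMIs in the stromal block alone, and Cyp2c55 in the colon is the highest value.

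The make-up of the absorptive total differed along the gut. Cyp3a13 (13.0%) and Cyp2b10 (12.7%) supplied the largest shares in the duodenum, Cyp4f14 in the jejunum (19.0%) and ileum (31.3%), and Cyp2c55 in the colon (77.8%). In the rectum Cyp2c55 (30.4%) and Cyp2d34 (29.2%) led. Summed by family, family 3 had 1047, 1313, 408, 225 and 210 CPM from duodenum to rectum, and family 4 had 1025, 1930, 1488, 382 and 127 CPM. Family 2 had 1718, 1740, 706, 5742 and 2186 CPM, with its highest value in the colon.

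Cyp2b10 and the 3 Cyp3a genes with at least 50 UMIs had their highest absorptive levels in duodenum or jejunum. Cyp3a11, the mouse counterpart of human CYP3A4 and a PXR target in liver, had 373, 476, 41.6, 6.80 and 0 CPM in absorptive-like cells from duodenum to rectum. Cyp2b10, the classic CAR target of mouse liver, had 502, 419, 28.5, 2.98 and 0 CPM. Both were more than an order of magnitude higher in duodenum and jejunum than in colon, with the ileum between. In the rectum, where both had 0 UMIs, a floor of 3 counts equals 5.88 CPM. Cyp3a25 had 160, 286, 98.6, 1.91 and 0 CPM, with the ileum within 2-fold of the duodenum. Cyp3a13 was more even than these 2 relatives: it had 514, 550, 267, 215 and 210 CPM, and its lowest value, in the rectum, had a 95% interval of 172 to 253. Cyp2c29 was found in duodenum and jejunum, at 20.7 and 7.25 CPM, with 0 UMIs in the other 3 absorptive libraries. The mix of absorptive-like clusters, which differed between segments, is described below.

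Family 4 genes, many of them fatty acid hydroxylases, did not share 1 segment pattern. Cyp4f14, which ω-hydroxylates leukotriene B4 in the mouse, had 450, 962, 825, 24.5 and 7.83 CPM from duodenum to rectum. Cyp4v3, the mouse counterpart of the human fatty acid hydroxylase CYP4V2 mutated in Bietti crystalline dystrophy, had 242, 510, 260, 8.83 and 5.88 CPM. The 3 small intestinal values of each gene lay above both large intestinal ones without overlap of their intervals. Other Cyp4f genes were spread more evenly: Cyp4f13 had 120, 187, 173, 48.7 and 41.1 CPM and Cyp4f16 had 85.6, 71.6, 56.6, 51.8 and 66.6 CPM. For Cyp4f40 the values were 66.8, 85.0, 110, 63.8 and 3.92 CPM, and the rectum (2 UMIs) stood apart. Cyp4b1, which oxidises fatty acids and xenobiotics such as 4-ipomeanol, had 45.0, 105, 62.4, 178 and 0 CPM, with the colon highest. Cyp4a10, a PPARA target of liver, was scarce at 14.0, 7.996, 0.264, 2.27 and 0 CPM, and Cyp4f15 more so at 0.571, 0.371, 0.0881, 2.15 and 0 CPM.

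The neighbouring Cyp2c genes had unlike patterns. Cyp2c55, which converts arachidonic acid to 19-HETE in the mouse, had 47.0, 41.1, 14.2, 4955 and 768 CPM from duodenum to rectum, from 41538 UMIs in the colon and 392 in the rectum. Colon and rectum were both far above all 3 small intestinal libraries. Cyp2c65, an arachidonic acid epoxygenase, had 199, 220, 53.2, 397 and 11.8 CPM, and Cyp2c66 had 107, 93.9, 5.20, 7.99 and 0 CPM. Colon was thus the highest segment for Cyp2c65 and among the 3 low ones for Cyp2c66, the pair with the long shared upstream run. Cyp2c68 had 66.3, 90.4, 50.1, 6.32 and 48.97 CPM, where the colon was lowest. Its close copy Cyp2c69 was nearly limited to the large intestine, at 0.0952, 0.0530, 0, 8.11 and 3.92 CPM, the rectal value resting on 2 UMIs.

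A group of Cyp2d genes had its highest levels in the rectum. Cyp2d34 had 0, 0.0530, 0.0881, 28.3 and 738 CPM in absorptive-like cells, Cyp2d10 had 0.238, 0.424, 0.176, 4.06 and 202 CPM, and Cyp2d9 had 0.0476, 0.212, 0, 0.716 and 123 CPM. Cyp2d12 had 0.0476, 0.159, 0.176, 0.477 and 92.1 CPM. In each case the rectal value was above the colonic one, and 3 of the 4 had at most 8 UMIs in any small intestinal library while Cyp2d34 had at most 1. Cyp2d26 ran the other way, with 394, 447, 247, 135 and 3.92 CPM. Within the Cyp2d total of 420, 478, 261, 180 and 1238 CPM, Cyp2d26 accounted for 93.8%, 93.5%, 94.7% and 74.9% from duodenum to colon, while Cyp2d34 accounted for 59.7% in the rectum. Cyp2d22, often set beside human CYP2D6, had 25.4, 29.9, 13.1, 11.7 and 74.4 CPM. With every deposited barcode kept, Cyp2d34 had 674 CPM, Cyp2d10 188 CPM, Cyp2d9 99.3 CPM and Cyp2d12 72.6 CPM in the rectum.

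Cyp1a1, a target of the aryl hydrocarbon receptor that oxidises polycyclic aromatic hydrocarbons, had 160, 81.2, 35.7, 19.8 and 5.88 CPM from duodenum to rectum. Each segment was below the one before it, although the rectal value rests on 3 UMIs (95% interval 1.21 to 17.2). Cyp1a2 had 14 UMIs in all epithelial-like and stromal-like cells. Cyp2u1, whose human counterpart hydroxylates long-chain fatty acids, had 14.8, 33.8, 39.7, 0.477 and 1.96 CPM, and its large intestinal values came from 4 and 1 UMIs. Cyp2j6 had 287, 300, 196, 147 and 21.5 CPM. Cyp2s1, an epithelial P450, was the most even of these at 39.5, 42.0, 52.9, 32.6 and 82.3 CPM, with the rectum highest.

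**Figure D2:**
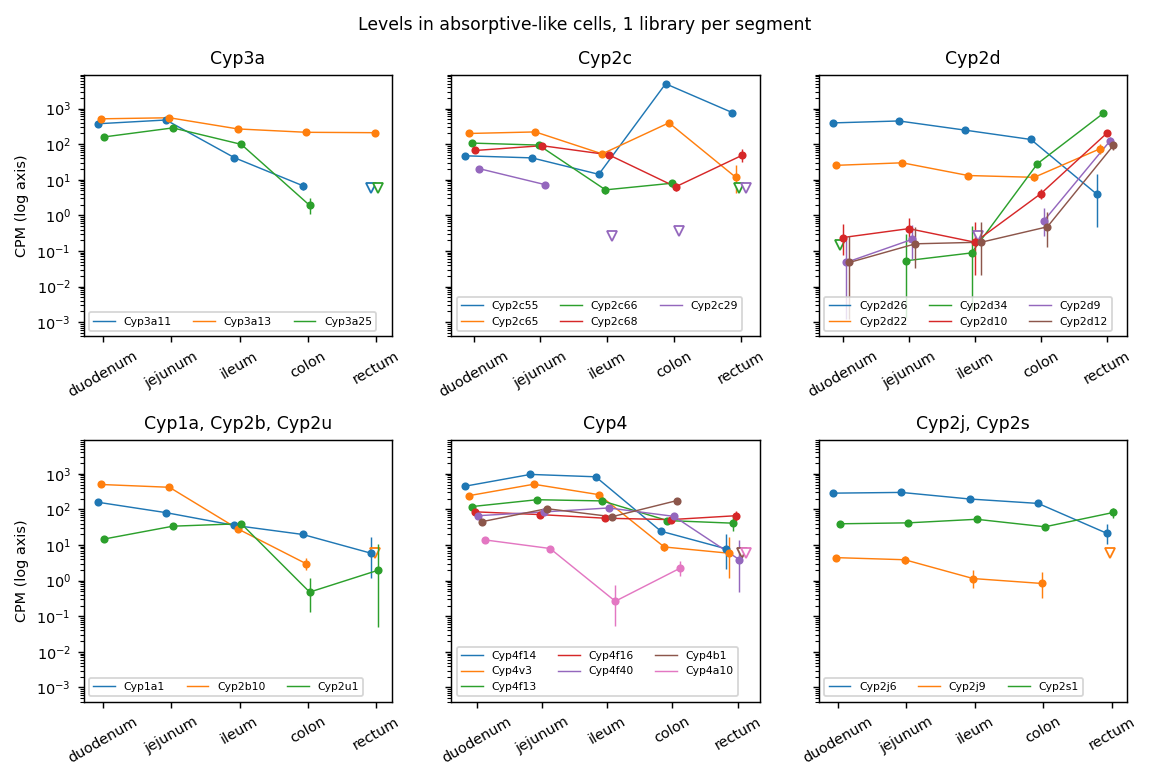
Levels in absorptive-like cells (CPM, log axis) from duodenum to rectum, 1 library per segment, in 6 panels by gene group. Points are levels with exact Poisson 95% intervals, and open triangles stand at the floor of 3 counts where a gene had 0 UMIs; Cyp3a11, Cyp2b10, Cyp4f14 and Cyp4v3 are lowest in colon and rectum, Cyp2c55 peaks at 4955 CPM in the colon, and Cyp2d9, Cyp2d10, Cyp2d12 and Cyp2d34 reach 92.1 to 738 CPM in the rectum.

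A rule of size was used in place of a test: the lowest library of one side had to be at least 4-fold above the highest of the other, with at least 50 UMIs in the class and a 0 set to 3 counts. In absorptive-like cells 30 members had enough UMIs. Of these, 6 met the rule as higher in the small intestine, where 1.90% of 11130 genes did: Cyp4v3 (27.5-fold), Cyp4f14 (18.4-fold), Cyp3a25 (at least 16.8-fold), Cyp3a11 (6.12-fold), Cyp2b10 (at least 4.84-fold) and Cyp2u1. Higher in the large intestine were 4 members, where 2.35% of genes were: Cyp2d34 (at least 198-fold), Cyp2c55 (16.3-fold), Cyp2d10 (9.57-fold) and Cyp2c69. Cyp2u1 and Cyp2c69 met it on a rectal count of 1 and 2 UMIs. In 1 segment at least 4-fold over the next were 5 members, against 2.63% of genes: Cyp2d12 (193-fold), Cyp2d9 (172-fold), Cyp2d10 (49.7-fold) and Cyp2d34 (26.1-fold) in the rectum and Cyp2c55 (6.45-fold) in the colon. Without the rectum library Cyp2c68 joined the small intestinal genes (7 in all), Cyp2d10 left the large intestinal ones (3 in all) and 3 members led in 1 segment. Without the ileum library Cyp1a1 and Cyp2c66 joined the small intestinal genes (8 in all). Without the colon library 12 met the small intestinal rule, among them Cyp2j6, Cyp4b1, Cyp1a1, Cyp2d26, Cyp4f40 and Cyp2c65, and in the large intestine Cyp2d9 and Cyp2d12 joined and Cyp2c69 left (5 in all). With at most 10% mitochondrial UMIs per barcode, in place of 20%, 55, 40, 304, 0 and 18 absorptive-like cells remained from duodenum to rectum, so that the rectum alone stood for the large intestine. Then 6 members met the small intestinal rule, of which Cyp2j6, Cyp2d26 and Cyp2c65 were added and Cyp2u1, Cyp3a11 and Cyp2b10 lost, and 3 met the large intestinal rule, with Cyp2d22 added and Cyp2d10 and Cyp2c69 lost. The rectal lead of Cyp2d10, Cyp2d9 and Cyp2d12 was lost too, since 44, 38 and 25 UMIs were left; their rectal levels were then 317, 274 and 180 CPM, with 0 UMIs in the 3 small intestinal libraries. The colonic absorptive-like cells came mostly from a cluster led by Car1, Sptssb and Mal and the rectal ones from a cluster led by Tgm3, Saa1 and Atp12a.

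Over all epithelial-like cells, whose make-up differs between libraries, 37 members had at least 50 UMIs. Higher in the small intestine were 6 (Cyp3a25, Cyp4f14, Cyp4v3, Cyp2b10, Cyp3a11 and Cyp2u1), against 2.76% of 13937 genes, and 4 were higher in the large intestine (Cyp2d34, Cyp2c69, Cyp2d10 and Cyp4x1), against 2.17%. In 1 segment far over the next were 4, against 3.15%: Cyp2f2, Cyp2d9 and Cyp2d12 in the rectum and Cyp2c55 in the colon. Without the ileum library 14 members, and without the colon library 12, were higher in the small intestine, the added ones in both cases including Cyp1a1, Cyp2c66, Cyp2d26 and Cyp3a13. Without the colon library 7 were higher in the large intestine, with Cyp2d9, Cyp2d12, Cyp2f2 and Cyp2r1 added and Cyp4x1 lost.

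In crypt-like cells some members also differed between segments. Cyp2c55 had 0.869, 0.605, 0.142, 449 and 26.5 CPM from duodenum to rectum, and Cyp2c65 had 20.1, 15.1, 3.84, 137 and 1.51 CPM. The colon was highest for both. Cyp2u1 had 7.19, 13.1, 23.2, 0.943 and 0.567 CPM, with all 3 small intestinal libraries above the large intestinal ones. Cyp2f2, which activates naphthalene in lung club cells, had 0, 0, 0.142, 0.539 and 9.26 CPM, and 147 of its UMIs came from rectal crypt-like cells. Cyp2e1, the ethanol-oxidising P450 of liver, was found proximally at 4.87, 2.42, 0.568, 0 and 0 CPM. Cyp2c68 was highest in the rectum, at 8.64, 5.04, 5.40, 5.18 and 43.0 CPM.

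Among the 26 members with at least 50 UMIs in crypt-like cells, Cyp2u1 (7.62-fold) and Cyp3a25 met the size rule as higher in the small intestine, against 1.16% of 12251 genes. Cyp2c55 (30.4-fold), Cyp2c69 (at least 7.01-fold) and Cyp2d34 (at least 4.34-fold) met it as higher in the large intestine, against 1.52%. In 1 segment at least 4-fold over the next were 7 members, against 2.72%: Cyp2c55 and Cyp2c65 in the colon and Cyp2c68, Cyp2d10, Cyp2d22, Cyp2d34 and Cyp2f2 in the rectum. That number was 3 without the rectum library. With finer clustering (Leiden resolution 2.0), which left 288 of the 472 rectal crypt-like cells in the class, Cyp2c55, Cyp2c69 and Cyp2d34 all lost the large intestinal call, and Cyp2c68, Cyp2d10, Cyp2d22 and Cyp2d34 the rectal lead. The rectal level of Cyp2c55 was then 1.80 CPM, that of Cyp2c69 0.900 CPM and that of Cyp2d34 1.30 CPM. With at most 10% mitochondrial UMIs the same calls were lost, those of Cyp2u1 and Cyp3a25 for the small intestine were lost as well, Cyp4f14 was added there, and Cyp2c55 had 2.07 CPM in rectal crypt-like cells. Without the ileum library Cyp2b10, Cyp2e1 and Cyp4f14 were added to the small intestinal genes (5 in all), without the colon library Cyp4f14 was added (3 in all), and without the duodenum library Cyp3a25 left them. Without the colon library Cyp2f2, Cyp2d22, Cyp2d10 and Cyp2c68 were added to the large intestinal genes (7 in all). The crypt-like cells of the small intestine, colon and rectum fell in 3 clusters, led by Olfm4, by Sult1a1 and by Wfdc2.

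Absorptive-like cells had more of most tested members than crypt-like cells of the same libraries. Of 25 members that passed the filter on low counts (50 did not), 23 were higher, while 29.7% of all 11741 genes tested were, by edgeR's quasi-likelihood test with Benjamini-Hochberg adjustment over all genes and the library as a term. Among the tested members none was lower, against 28.9% of all genes; none was lower at an unadjusted p under 0.05 either, nor by DESeq2. Members left out by the filter include some with more crypt than absorptive UMIs: Cyp2e1 had 2 absorptive and 100 crypt UMIs and Cyp2f2 had 11 and 156. With no filter on low counts Cyp2e1 was lower (-5.37, SE 1.018, adjusted p = 0.00337). The median log2 fold change was 3.55 over the tested members and 0.03 over all genes. The 5 libraries serve as replicates here, so the spread between them includes differences between segments, and nothing in the labels says that they came from separate animals.

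The 4 largest fitted differences among the tested members were those of Cyp2b10, Cyp3a11, Cyp1a1 and Cyp3a25 (6.65, SE 0.49, adjusted p = 7.16e-05). Cyp2b10 had 502, 419, 28.5, 2.98 and 0 CPM in absorptive-like cells and 2.61, 1.61, 0, 0 and 0 CPM in crypt-like cells, a log2 fold change of 8.40 (SE 0.39, adjusted p = 3.9e-05). It was higher in 4 of 5 libraries, and the rectum had 0 UMIs in both classes. Cyp3a11 had 1.51, 1.41, 0.142, 0.135 and 0 CPM in crypt-like cells and rose by 8.37 (SE 0.43, adjusted p = 4.86e-05). Cyp1a1 had at most 0.406 CPM in any crypt-like library, and its absorptive values did not overlap them; it rose by 8.15 (SE 0.55, adjusted p = 5.25e-05, 5 of 5 libraries). Cyp3a13 had 15.3, 15.5, 7.24, 11.2 and 11.3 CPM in crypt-like cells and rose by 5.20 (SE 0.31, adjusted p = 3.9e-05, 5 of 5 libraries).

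Genes of lipid and arachidonic acid oxidation rose as well. Cyp4b1 rose by 5.60 (SE 0.38, adjusted p = 5.84e-05). Cyp2c55 rose by 5.38 (SE 0.49, adjusted p = 0.00015) and Cyp4f14 by 5.23 (SE 0.54, adjusted p = 0.000246), both in 5 of 5 libraries. Cyp4f14 had 21.9, 30.9, 12.2, 3.16 and 0.0630 CPM in crypt-like cells, so that its colonic absorptive value overlapped the range of the small intestinal crypts. Cyp2c23, an arachidonic acid epoxygenase, was low throughout, at 5.33, 5.56, 1.94, 1.07 and 3.92 CPM in absorptive-like cells, and rose by 5.02 (SE 0.53, adjusted p = 0.000262). The smallest rise among the called members was that of Cyp2s1, at 1.27 (SE 0.17, adjusted p = 0.000672, 5 of 5 libraries), with 22.1 to 29.6 CPM in crypt-like cells. Cyp4f16 rose by 2.17 (SE 0.14, adjusted p = 5.06e-05), with crypt-like levels of 22.7, 23.8, 19.3, 14.6 and 18.8 CPM.

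In the rectum several genes had low absorptive counts. Cyp2j6 had 45.3, 40.1, 32.8, 43.0 and 30.3 CPM in crypt-like cells, below the absorptive level in every segment but the rectum. There the absorptive level of 21.5 CPM came from 11 UMIs, and its 95% interval of 10.8 to 38.6 CPM spans the crypt value. Over the 5 libraries Cyp2j6 rose by 2.50 (SE 0.55, adjusted p = 0.00657). Cyp4f40, with 19.9, 33.9, 32.0, 37.2 and 22.2 CPM in crypt-like cells, had 2 rectal absorptive UMIs (95% interval 0.474 to 14.2 CPM) and rose by 1.51 (SE 0.51, adjusted p = 0.0359). Cyp2d26 (4.51, SE 1.06, adjusted p = 0.00876) and Cyp4v3 (3.45, SE 0.77, adjusted p = 0.00716) were also lower in absorptive-like than in crypt-like cells of the rectum, on 2 and 3 absorptive UMIs. Cyp4f17 (-0.36, adjusted p = 0.737) and Cyp2r1, the vitamin D 25-hydroxylase (-0.77, adjusted p = 0.192), did not pass the threshold.

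Of the 23 calls, 17 held without any 1 of the libraries. The call of Cyp4f40 was lost without the duodenum (adjusted p = 0.135), jejunum (0.115), ileum (0.109) or colon (0.0595), and that of Cyp2c66 without the duodenum (0.0822), jejunum (0.0742) or ileum (0.0546). Cyp2c68 was lost without the duodenum (0.0638) or ileum (0.0557), Cyp2j9 without the duodenum (0.181) or jejunum (0.129), Cyp2c67 without the jejunum (0.104) or ileum (0.0998) and Cyp2u1 without the jejunum (0.0506). Without the duodenum Cyp2c67 was not tested.

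**Figure D3:**
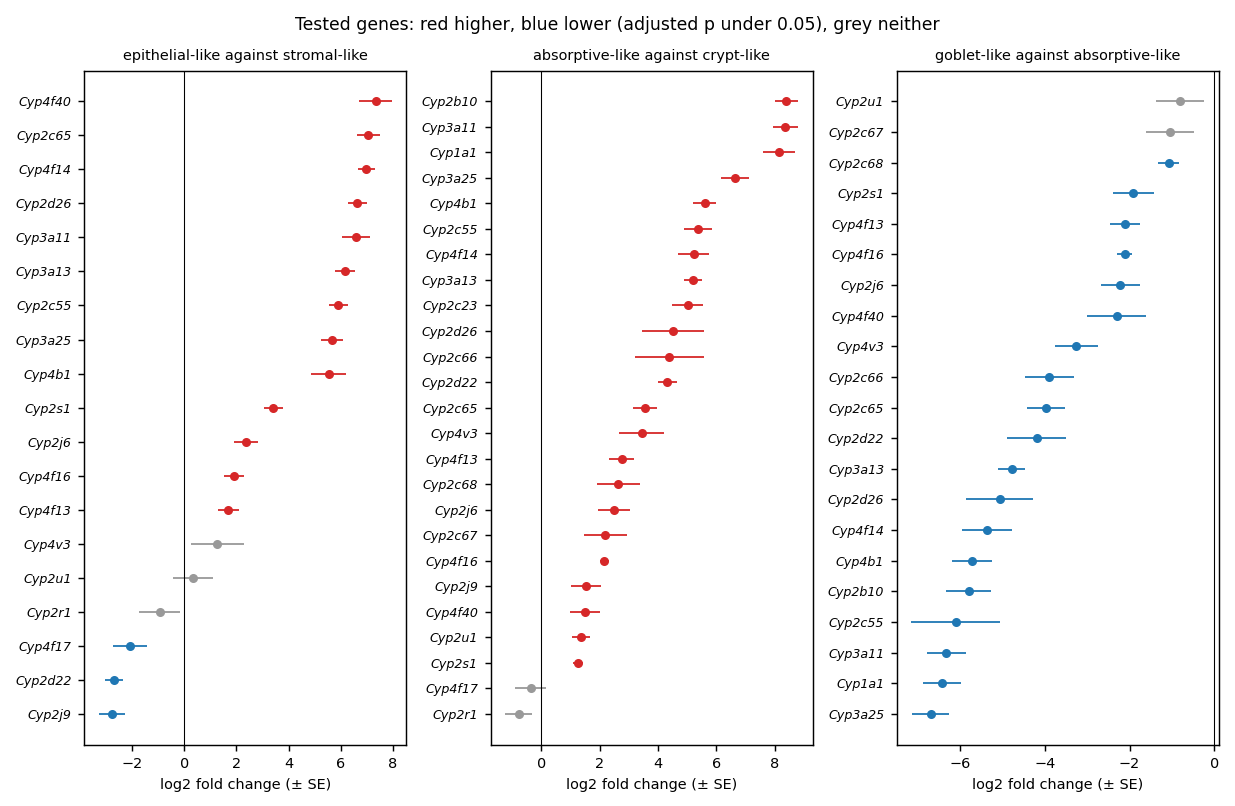
Fitted log2 fold changes with standard errors of the tested members in epithelial-like against stromal-like, absorptive-like against crypt-like and goblet-like against absorptive-like cells (5 libraries each). Red is higher and blue lower at an adjusted p under 0.05, and grey is neither; Cyp1b1 and Cyp2c68, with 0 UMIs on one side, are left out of the left panel, and the middle panel lies mostly right of 0 while the right panel lies left of it.

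Duodenal and jejunal absorptive-like cells fell into 3 clusters that differed in member levels, which is given as a description without a test. The first was led by Reg1, Gstm3 and Aadac (138 duodenal and 46 jejunal cells), the second by Reg1, Rbp2 and Gsta1 (296 and 245), and the third by the apolipoprotein genes Apoa4, Apoc2 and Apoc3 (194 and 337). Summed over all members the levels were 1014, 3435 and 6893 CPM in this order. In the duodenum Cyp3a11 had 2.42, 179 and 967 CPM across the 3 clusters, and in the jejunum 3.59, 138 and 761 CPM. Cyp1a1 had 1.49, 110 and 365 CPM in the duodenum, and Cyp2b10 had 21.6, 481 and 938 CPM. Cyp4f14 spanned a narrower range, 145, 414 and 760 CPM in the duodenum and 232, 748 and 1211 CPM in the jejunum. Cyp2s1 was level at 40.3, 38.1 and 41.0 CPM in the duodenum, and so was Cyp2u1 at 15.4, 13.4 and 16.3 CPM. Cyp4f40 ran in the opposite direction, at 83.6, 77.6 and 36.7 CPM in the duodenum and 129, 106 and 65.0 CPM in the jejunum.

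The ileum had 2 such clusters, led by Reg3g and Reg3b (283 cells, 1570 CPM over all members) and by Plb1, Fabp6 and Fgf15 (303 cells, 3644 CPM). Cyp3a11 had 2.90 CPM in the first and 77.9 CPM in the second, Cyp4v3 82.8 and 427 CPM, and Cyp4f14 498 and 1140 CPM. Cyp4f40 (143 and 78.2 CPM) and Cyp2s1 (58.9 and 46.9 CPM) were higher in the first.

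**Figure D4:**
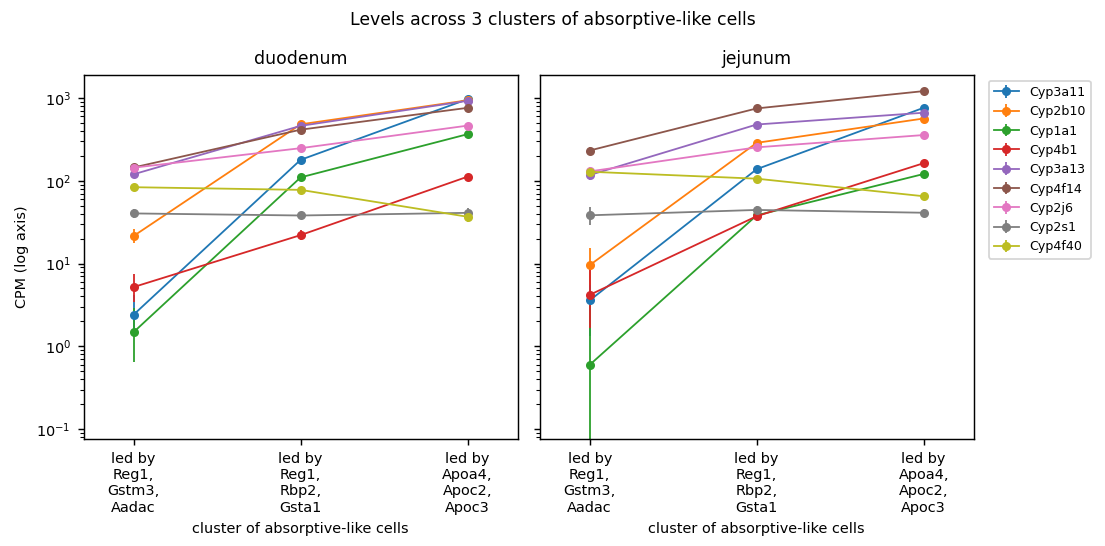
Levels (CPM, log axis, exact Poisson 95% intervals) of 9 members in the 3 clusters of absorptive-like cells in the duodenum and the jejunum. Cyp3a11, Cyp1a1, Cyp2b10 and Cyp4b1 span the widest ranges, Cyp2s1 is level near 40 CPM, and Cyp4f40 is lowest in the cluster led by Apoa4.

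Goblet-like cells had less of most members than absorptive-like cells. Of 21 members tested (54 were not), 19 were lower, where 22.2% of 11096 genes were. None was higher, where 21.8% of genes were, none was higher at an unadjusted p under 0.05 and DESeq2 called none. The median log2 fold change was -3.98 over the tested members and 0.02 over all genes. Cyp3a13 had 24.7, 39.2, 13.1, 9.20 and 3.55 CPM in goblet-like cells, all below the lowest absorptive value of 210 CPM, and fell by 4.78 (SE 0.32, adjusted p = 0.000174). Cyp1a1 had 0.850, 3.38, 0.147, 0.320 and 0 CPM and fell by 6.43 (SE 0.45, adjusted p = 0.000184, 5 of 5 libraries). Cyp2c55 had 0, 4.05, 0, 318 and 0.934 CPM in goblet-like cells and fell by 6.11 (SE 1.04, adjusted p = 0.00331, 5 of 5 libraries). Its colonic goblet value lay above the 3 small intestinal absorptive ones. That value came from a cluster led by Reg4, Retnlb and Spink4 (397 CPM), while the colonic goblet cluster led by Plet1 and Muc2 had 10.6 CPM, less than the 24.6 CPM of colonic immune-like cells.

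Cyp2c68 was the called member that differed least between these lineages. It had 41.7, 29.1, 41.1, 4.72 and 19.1 CPM in goblet-like cells, against 66.3, 90.4, 50.1, 6.32 and 48.97 CPM in absorptive-like cells, and fell by 1.08 (SE 0.26, adjusted p = 0.0131, 5 of 5 libraries). Cyp2u1 had 5.95, 10.8, 17.6, 3.12 and 2.43 CPM in goblet-like cells and did not pass (-0.80, adjusted p = 0.282), but without the colon it did (-1.42, adjusted p = 0.00924). Cyp2c67 did not pass either (-1.05, adjusted p = 0.171). The call of Cyp4f40 (-2.31, adjusted p = 0.0303) was lost without the duodenum (0.0843), jejunum (0.0936) or ileum (0.111), and that of Cyp2s1 (-1.91, adjusted p = 0.0171) without the jejunum (0.0536) or ileum (0.062). Among the 19 members with at least 50 UMIs in goblet-like cells, none met the size rule as higher in the small intestine (1.03% of 11259 genes did) or in the large intestine (0.853%). Without the ileum library Cyp4v3 and Cyp4f14 met it for the small intestine, without the colon library Cyp4f14 and Cyp2c65, and without the rectum library Cyp4v3 and Cyp2c68. For the large intestine Cyp2d34 met it without the colon library and Cyp2c55 without the rectum library.

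Hormone-secreting enteroendocrine-like cells, at least 10 of them in 4 libraries, were described by their levels alone. Over all members they had 635, 517, 1046 and 504 CPM in duodenum, ileum, colon and rectum. Cyp2c68 had 44.9, 53.4, 25.4 and 282 CPM in these segments, the rectal value resting on 126 UMIs (95% interval 235 to 336) and lying above its level in every other class there. Cyp4b1 had 88.4, 126, 20.2 and 0 CPM, and Cyp2c55 had 1.32, 0, 616 and 4.48 CPM. Cyp4x1, whose human counterpart oxidises anandamide, had 36 of its 56 epithelial UMIs in these cells, at 0, 0, 23.9 and 8.97 CPM; without stated strand use its reads cannot be told from those of the antisense gene Cyp4x1os. Cyp2j5 had 27 of its 28 UMIs there, and all 3 UMIs of Cyp2j13 were in tuft-like cells. Ileal Paneth-like cells had 70.3 CPM over all members, below the other epithelial classes of the ileum.

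Stromal-like cells, which hold fibroblast-like, trophocyte-like and smooth muscle-like clusters, had few member UMIs but some members of their own. As CPM, their summed member levels lay within the range of those of goblet-like cells. Epithelial-like cells were higher for 14 of 21 members tested (54 were not), where 29.2% of all 12914 genes were, and lower for 4, where 24.4% were. The median log2 fold change was 3.41 over the tested members and 0.13 over all genes. Cyp4f14 (6.98, SE 0.33, adjusted p = 1.33e-06), Cyp2d26 (6.64, SE 0.36, adjusted p = 2.34e-06) and Cyp2c65 (7.06, SE 0.45, adjusted p = 4.93e-06) had 3 stromal UMIs each. Cyp2c68 had 5534 UMIs in epithelial-like cells and 0 in stromal-like ones, at least 53.6-fold higher when the stromal sum is set to 3 counts. It passed the filter on low counts through the epithelial sums alone, so it could only be called higher. Cyp2s1 rose by 3.41 (SE 0.37, adjusted p = 0.00011, 5 of 5 libraries). Differences were smaller for Cyp2j6 (2.37, SE 0.46, adjusted p = 0.00269), Cyp4f16 (1.92, SE 0.38, adjusted p = 0.00294) and Cyp4f13 (1.68, SE 0.40, adjusted p = 0.00781), each higher in 5 of 5 libraries. With at most 10% mitochondrial UMIs the call of Cyp4f13 was lost (0.74, adjusted p = 0.149). The call of Cyp3a11 (6.59, SE 0.54, adjusted p = 4.69e-05) was not made by DESeq2 (adjusted p = 0.0759), and neither it nor Cyp3a25 was tested without the duodenum. Cyp2c55 rose by 5.90 (SE 0.37, adjusted p = 4.47e-06), with 35.5 CPM in colonic stromal-like and 24.6 CPM in colonic immune-like cells.

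Cyp1b1, an aryl hydrocarbon receptor target that also oxidises estradiol, had 0 UMIs in all epithelial-like cells and 47.4, 101, 136, 6.31 and 0.814 CPM in stromal-like cells from duodenum to rectum. These came from 20, 13, 28, 8 and 2 UMIs. The epithelial sum was at least 815-fold lower when set to 3 counts. With 0 epithelial UMIs Cyp1b1 passed the filter on low counts through the stromal sums alone, so it could only be called lower. It was not tested with no doublets removed or with at most 10% mitochondrial UMIs. Among the 6 members with at least 50 stromal UMIs, Cyp1b1 alone met the size rule as higher in the small intestine (7.50-fold), against 0.0461% of 8681 genes, and not without the ileum library. None met it as higher in the large intestine, against 0.0115%, or in 1 segment, against 0.495%. Of the 71 stromal UMIs, 49 were in trophocyte-like cells, with 204 CPM in the ileum, 19.4 CPM in the colon and 5.49 CPM in the rectum. Duodenal fibroblast-like cells had 92.8 CPM. The mix of stromal clusters differed between libraries, and its part in the segment difference was not tested.

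The other members lower in the epithelium had low to moderate levels. Cyp2d22 had 14.0, 22.2, 5.43, 4.28 and 7.70 CPM in epithelial-like cells, against 78.1, 109, 63.0, 71.0 and 63.1 CPM in stromal-like cells. The ranges did not overlap, and it fell by 2.70 (SE 0.34, adjusted p = 0.000254, 5 of 5 libraries). Within the stroma it was found in fibroblast-like (78.6 CPM), trophocyte-like (62.8 CPM), smooth muscle-like (57.3 CPM) and PDGFRA-high fibroblast-like cells (53.5 CPM). Cyp2j9 had 2.83, 3.13, 1.26, 0.727 and 0.540 CPM in epithelial-like cells, against 9.47, 23.3, 9.69, 10.3 and 8.54 CPM in stromal-like cells, and fell by 2.76 (SE 0.51, adjusted p = 0.00199). Cyp4f17 fell by 2.09 (SE 0.65, adjusted p = 0.0258, 4 of 5 libraries), on 25 stromal UMIs, and the call was lost without the duodenum (0.0538), ileum (0.0754) or colon (0.0976). Cyp4v3 (1.26, adjusted p = 0.328), Cyp2u1 (0.35, adjusted p = 0.737) and Cyp2r1 (-0.94, adjusted p = 0.343) did not pass.

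Endothelial-like and immune-like cells each had members at levels above those of the stroma. Endothelial-like cells, 16 to 40 per library, had 846, 736, 1031, 377 and 448 CPM over all members. Most of them (118) fell in a cluster led by Ccl21a, Mmrn1 and Lyve1, and 15 in another led by Fabp4, Plvap and Flt1. Cyp4b1 had 558, 336, 589, 171 and 271 CPM in endothelial-like cells, from 303 UMIs. In the colon its level in absorptive-like cells was about as high. Cyp1b1 had 53.7, 177, 221, 0 and 0 CPM in endothelial-like cells, so that, as in the stroma, the 3 small intestinal values were above the large intestinal ones. Cyp2d22 had 114, 77.3, 94.7, 53.0 and 53.3 CPM. In immune-like cells Cyp4f18, which hydroxylates leukotriene B4 in the mouse, had 92.7, 74.1, 109, 86.1 and 52.8 CPM. Over all libraries it had 274 CPM in macrophage-like, 156 CPM in B-like, 44.1 CPM in dendritic-like and 1.504 CPM in T-like cells.

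**Figure D5:**
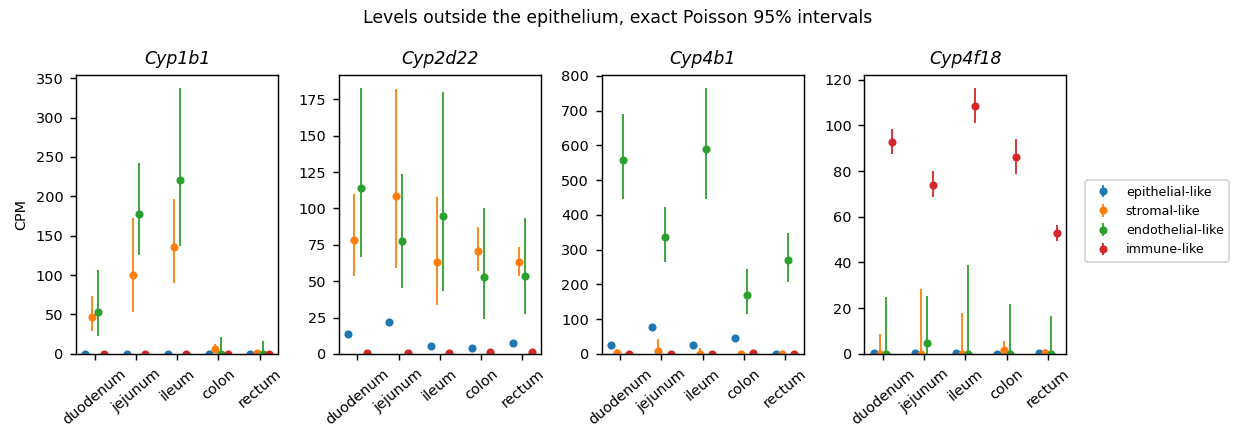
Levels (CPM, exact Poisson 95% intervals) of Cyp1b1, Cyp2d22, Cyp4b1 and Cyp4f18 in epithelial-like, stromal-like, endothelial-like and immune-like cells of the 5 segments. Cyp1b1 appears in stromal-like and endothelial-like cells of the small intestine, Cyp4b1 is highest in endothelial-like cells, and Cyp4f18 lies between 52.8 and 109 CPM in immune-like cells.

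The share of cells with at least 1 UMI was compared after thinning each cell to 2000 UMIs, since depth differed between libraries. A Cyp2c55 UMI was found in 7.17%, 7.97%, 2.28%, 99.2% and 73.8% of absorptive-like cells from duodenum to rectum (47.3%, 45.6%, 15.9%, 99.6% and 75.4% unthinned). In colonic immune-like cells, which should lack it, the thinned share was 6.84%. For Cyp3a11 the thinned shares were 35.0%, 45.9%, 7.59%, 0.83% and 0%, and for Cyp1a1 they were 24.2%, 11.8%, 4.55%, 2.07% and 2.38%. All thinned rectal absorptive shares rest on 42 cells. Cyp2d34 was found in 78.6% of rectal absorptive-like cells after thinning, against 0.09% of rectal immune-like cells. For Cyp1b1 in stromal-like cells the thinned shares were 4%, 21.4%, 10.0%, 1.20% and 0.358%, with at most 0.312% in immune-like cells. These stromal shares rest on only 50, 14, 20, 167 and 279 cells.

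Genes that serve or regulate P450 enzymes were read from 8 lists. Unlike the members, these genes were not kept out of the clustering. Their counts stand against 29.7% of all genes higher in absorptive-like than in crypt-like cells, 22.2% lower in goblet-like than in absorptive-like cells and 29.2% higher in epithelial-like than in stromal-like cells. Of 7 electron donors and heme partners, 6 were higher and none was lower in absorptive-like than in crypt-like cells, and 6 were lower in goblet-like than in absorptive-like cells. Por had 150, 115, 49.97, 115 and 94.0 CPM in absorptive-like cells against 25.0, 25.6, 20.3, 34.0 and 26.2 CPM in crypt-like cells, and rose by 2.36 (SE 0.24, adjusted p = 0.000231). Between epithelial-like and stromal-like cells Por did not pass (-0.52, adjusted p = 0.223), and Cyb5b alone of the 7 was higher (2.78). Of 7 heme synthesis genes read here, Alas1 (1.01), the rate-limiting enzyme, and Ppox (0.63) were higher in absorptive-like than in crypt-like cells, a share near that of all genes. In goblet-like cells Alas1 and Alad were lower than in absorptive-like cells, and 4 of the 7 were higher in epithelial-like than in stromal-like cells.

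Of 13 sensing transcription factors, 8 were higher and none was lower in absorptive-like than in crypt-like cells, and 8 were lower in goblet-like cells. Nr1i3, which encodes CAR, had the largest rise (3.60, SE 0.24, adjusted p = 5.06e-05), and Nr1i2, which encodes PXR, rose by 1.63 (SE 0.20, adjusted p = 0.000484). Ahr did not pass in this contrast (-0.35, adjusted p = 0.207), nor between epithelial-like and stromal-like cells (-0.38, adjusted p = 0.57), where 8 of 12 factors were higher and Arnt was lower. Other PXR and CAR targets were higher in absorptive-like than in crypt-like cells for 7 of 8 genes, among them Ces2a (3.75) and Abcc2 (3.20). For the other PPARA targets read here the count was 6 of 8, among them Ehhadh (2.34) and Fabp1 (6.64), a gene that also served as an absorptive marker. Of 3 other aryl hydrocarbon receptor targets tested, Ugt1a6a alone rose (0.97), while Tiparp (0.80, adjusted p = 0.122) and Nqo1 (0.36, adjusted p = 0.281) did not pass. Of the epoxide hydrolases and eicosanoid enzymes tested, 3 of 5 were higher in absorptive-like cells, including Ephx2 (3.37), which hydrolyses epoxides made by Cyp2c enzymes, and Pla2g4a was lower (-5.07). P450 genes of families above 4 had another distribution: 5 of 7 tested were lower in epithelial-like than in stromal-like cells, among them Cyp26b1 (-5.84) and Cyp27a1 (-1.77), and 1, Cyp51, was higher (2.36).

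Members with few counts complete the account. The 18 members with no UMI in the cells kept were Cyp2a4, Cyp2a12, Cyp2a22, Cyp2b13, Cyp2b19, Cyp2c37, Cyp2c39, Cyp2c50, Cyp2c54, Cyp2g1, Cyp2j7, Cyp2j12, Cyp3a16, Cyp3a57, Cyp4a14, Cyp4a29, Cyp4a31 and Cyp4a32, and 16 of them had none in any deposited barcode. Of the 19 members with 1 to 49 UMIs in epithelial-like and stromal-like cells, the highest were Cyp2c38 (43 UMIs), Cyp3a59 (34) and Cyp2c70 (33). These members did not pass the filter of the main class tests or reach the 50 UMIs of the size rule. Their differences between segments or classes were therefore not tested.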

How the data were processed

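The deposited files hold raw UMI counts per gene and cell barcode for 5 libraries. Per the submitters' processing notes they were made with Cell Ranger 4.0.0 and Seurat on mm10, while the matrix headers name cellranger 7.2.0; how reads were assigned is not given in the sources used here. Per the labels' protocols, live cells were sorted (propidium iodide, 5 µg/ml) and sequenced as 150-bp pairs.

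A barcode was kept if it had 300 or more genes and no more than 20% of its UMIs from mitochondrial genes (12255 of 16535 barcodes); 333 likely doublets were removed at a rate of 0.8% per 1000 barcodes. The rest were clustered with scanpy 1.11.5 (2000 variable genes, 30 components, 15 neighbours, Leiden resolution 1). P450 members were left out of the clustering genes and of the 25 marker lists, and a class needed at least 3 markers raised 1.5-fold and at least 10 cells per library. Class sums of UMIs in each library were the input of all levels and tests. Class contrasts were tested in R 4.3.3 with edgeR 4.0.16 (TMM, filterByExpr, quasi-likelihood, library as a term, Benjamini-Hochberg threshold of 0.05); DESeq2 1.42.0 was an alternative, and the procedure was tested on simulated counts. Segments were described by the size rule, since 3 libraries against 2 cannot give a two-sided exact permutation p below 0.2. A count of 0 was set to 3 counts in folds. Members with at least 50 UMIs or called by a test were named, and a few with fewer UMIs were named after their values were seen. The members and the pathway lists were chosen with earlier results of these data known. For the lists of heme synthesis genes and of other PPARA targets, 1 gene of each is not reported here and is left out of the counts. Alternatives covered barcode filters, clustering, normalization, size thresholds and leaving out each library.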

Additional observations from a re-analysis of the deposited data

Results flagged for a closer look

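In 4 cases every small intestinal library moved in one direction and every large intestinal library in the other within a class contrast. These differences were not tested. Only members were searched, so the share of all genes that would meet this rule is not known, and the count has no background. The log2 ratios below compare the levels of 2 classes after UMIs were pooled over the libraries of a side. For Cyp4v3 in epithelial-like against stromal-like cells the ratio was 3.30 in the small intestine and -2.003 in the large intestine, 5.30 apart. The levels were 137, 380, 109, 4.31 and 6.21 CPM in epithelial-like cells from duodenum to rectum, against 18.9, 38.8, 9.69, 14.2 and 23.2 CPM in stromal-like cells. For Cyp2u1 in the same contrast the values were 1.95 and -1.53, 3.48 apart, on 20 stromal UMIs. For Cyp2u1 in goblet-like against absorptive-like cells they were -0.86 and 2.37, a difference of -3.23, and for Cyp2c67 in absorptive-like against crypt-like cells 2.92 and -0.58, 3.51 apart. Both of these rest on 6 or fewer absorptive UMIs in each large intestinal library.

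Signals also appeared in classes outside the 3 contrasts. Over all libraries Cyp4f18 had 78.3 CPM in immune-like cells (3892 UMIs), against 0.369 CPM in epithelial-like and 0.669 CPM in stromal-like cells. Cyp4b1 had 353 CPM in endothelial-like cells (303 UMIs), against 36.0 CPM in epithelial-like and 0.446 CPM in stromal-like cells. The epithelial value pools all epithelial classes, and in the colon absorptive-like cells were about as high as endothelial-like ones. Cyp1b1 had 79.2 CPM in endothelial-like cells (68 UMIs), against 0 in epithelial-like and 15.8 CPM in stromal-like cells.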

How the results depend on the processing

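Among members tested in both the main and an alternative run, none that was called in either of them had opposite directions in the 2. Of the member results, 297 of 304 were on the same side of the threshold for epithelial-like against stromal-like cells. The count was 338 of 359 for absorptive-like against crypt-like and 290 of 302 for goblet-like against absorptive-like cells. Levels stayed within their counting intervals in 237 of 299 cases. Thinned shares did so in 19 of 76, but their alternatives used other numbers of UMIs per cell. A share must change with that number, so this count does not measure stability. With no filter on low counts, 23 members were higher and, in absorptive-like against crypt-like cells, 1 was lower. With at most 10% mitochondrial UMIs, 2 members were lower in epithelial-like cells, 1845 genes were higher in absorptive-like cells, and in goblet-like cells 8 members and 1067 genes were lower and 961 genes higher. Leaving out 1 library gave 1477 to 2505 genes higher and 1555 to 2674 lower in goblet-like cells. The limit of 10% mitochondrial UMIs left no colonic absorptive-like cells, so that both absorptive contrasts rested on 4 libraries. Under it the call of Cyp4f40 in absorptive-like against crypt-like cells was lost (adjusted p = 0.0679). In goblet-like cells those of Cyp2j6, Cyp2s1 and Cyp2c68 were lost (0.0676, 0.0655 and 0.0983). Other called members were not tested under it, so their calls could not be checked. These were Cyp1a1, Cyp2c23, Cyp2c67, Cyp2j9 and Cyp3a11 in absorptive-like against crypt-like cells. In goblet-like against absorptive-like cells they were Cyp1a1, Cyp2b10, Cyp2c65, Cyp2c66, Cyp2d26, Cyp3a11, Cyp3a25 and Cyp4b1. In epithelial-like against stromal-like cells they were Cyp1b1, Cyp3a11 and Cyp4f17. With every deposited barcode Cyp4f17 (0.0538), Cyp4f40 (0.0528) and Cyp2c67 (0.0687) were lost, and with at least 1000 genes Cyp2c67 (0.0991). Without the library term Cyp2c55, Cyp2c65 and Cyp2u1 were no longer called in absorptive-like against crypt-like cells (adjusted p = 0.159, 0.0781 and 0.239), nor Cyp2c55, Cyp2c65 and Cyp2c68 in goblet-like cells.

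Under the size rule, leaving out 1 library gave 6 to 12 small intestinal members in absorptive-like, 1 to 5 in crypt-like, 0 to 2 in goblet-like, 6 to 14 in epithelial-like and 0 to 1 in stromal-like cells, and 3 to 7, 0 to 1 and 4 to 7 large intestinal members in crypt-like, goblet-like and epithelial-like cells. With at most 10% mitochondrial UMIs the small intestinal count was 1 in crypt-like and 2 in goblet-like cells, the large intestinal count 0 in crypt-like and 1 in epithelial-like cells, and the count led by 1 segment 3 in both absorptive-like and crypt-like cells. Resolution 2.0 gave 1 small intestinal, 0 large intestinal and 4 segment-led members in crypt-like cells. A gap of 2-fold gave 4, 2 and 11 small intestinal members in crypt-like, goblet-like and epithelial-like cells, 1 and 7 large intestinal ones in goblet-like and epithelial-like cells, and 8, 11 and 12 segment-led ones in absorptive-like, crypt-like and epithelial-like cells. At least 200 UMIs left 2 large intestinal and 2 segment-led members in absorptive-like, 1 small intestinal and 4 segment-led in crypt-like, 1 segment-led in epithelial-like and 0 in stromal-like cells. Means over cells gave 1 member on each side in goblet-like cells and 7 segment-led in epithelial-like cells, no doublet removal 1 small intestinal member in goblet-like cells, at least 1000 genes 4 segment-led in crypt-like cells, and leaving out the rectum 3 segment-led in absorptive-like and in crypt-like cells. The cause was not tested. Depth limits the rectal absorptive-like cells, where 3 counts equal 5.88 CPM, and the stromal-like cells of jejunum and ileum.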
